A study of Rattus norvegicus with 6 samples.

Results

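The miR-148/miR-152 family is a group of microRNAs (miRNAs) with a shared seed, and in the rat its genes are Mir148a, Mir148b and Mir152. The members were found by gene symbol, a rule that uses no measured value although the family was picked with earlier results of these data known, and 3 of the 32883 genes in the deposited table matched, 1 row for each gene. All 3 had reads in every library. Small RNAs were profiled in 6 clones of INS-1, a rat insulinoma line that secretes insulin and here also carries an mCherry reporter in an insulin transgene, with 1 library per line. The control lines were 5-9, 2 and 16, and those modelling Prader-Willi syndrome (PWS) were 3, 19-1 and 19-4, all grown without treatment at 7.5 mM glucose. In all 6 lines the silent, maternal copy of the imprinted PWS domain is deleted, and in PWS lines the active paternal copy is deleted too. Per the methods of the study, lines 2, 16 and all PWS lines derive from line 5-9, and lines 19-1 and 19-4 are subclones of a single edited line, so the PWS lines hold fewer independent edits than lines. Line 3 has a larger paternal deletion than the others. The p-values below therefore measure the spread between clonal lines.

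A miRNA is cut from a hairpin precursor into a short mature strand, which guides an Argonaute protein to messenger RNAs that pair with its seed, near the 5′ end, and lowers their translation or stability. The miR-148/miR-152 family is abundant in pancreatic β-cells, where it is among the miRNAs that keep insulin transcription up by holding down transcriptional repressors such as Sox6 and Bhlhe22. Its members are also known for targeting DNA methyltransferase Dnmt1 and the cholesterol exporter Abca1. None of the 3 genes lies in the PWS domain.

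The 3p strands are shown because their shared seed is what makes the genes a family, and because the few bases in which they differ are what lets reads be assigned to 1 member. The sequences are those of RefSeq (assembly GRCr8), written 5′ to 3′, with the seed, bases 2 to 8, in capitals.
rno-miR-148a-3p: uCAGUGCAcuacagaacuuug
rno-miR-148b-3p: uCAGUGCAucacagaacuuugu
rno-miR-152-3p: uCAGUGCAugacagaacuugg

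All 3 seeds were CAGUGCA, and among 724 mature rat miRNAs in the RefSeq table no other sequence had this seed. Counted from 1 at the 5′ end, miR-148a-3p differed from miR-148b-3p by C9U and U10C over 21 shared positions, and miR-148b-3p had 1 further base at its 3′ end. From miR-148a-3p to miR-152-3p the changes were C9U, U10G and U20G, and from miR-148b-3p to miR-152-3p they were C10G and U20G. All differences thus fell 3′ of the seed. The opposite, 5p strands do not share a seed, as the pair in the table shows.
rno-miR-148a-5p: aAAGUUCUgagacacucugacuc
rno-miR-152-5p: aGGUUCUGugauacacuccgacu
The deposited values sum both strands of a hairpin, so how many reads came from the 3p strand was not measured.

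In GRCr8 the miR-148a-3p sequence lies at chr4:81664447-81664467 on the minus strand, miR-148b-3p at chr7:136299930-136299951 on the plus strand, and miR-152-3p at chr10:82329435-82329455 on the plus strand. Mir148b lies within Copz1 and Mir152 within Copz2, each on the strand of its host. These hosts are paralogs that encode ζ subunits of the COPI coat, which moves vesicles from the Golgi to the endoplasmic reticulum. Mir148a lies in no protein-coding gene of this annotation, and the nearest annotated protein-coding genes are Npvf and LOC102549423. The authors aligned reads to an earlier build (Rnor_6.0), so these positions describe the loci and not the alignments. Read counts of the 3 genes were identical under both ways of counting that the authors deposited, which differ for reads shared between genes, so none of the reads of Mir148a (3774952 in all), Mir148b (635105) or Mir152 (46869) was also assigned to another gene.

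The libraries held 7373691 to 16480475 reads assigned to genes, with a read shared between genes counted once for each of them, and 7220865 to 16128958 with shared reads left out. On the first count miRNA genes took 88.5% to 90.0%. The Snord116 small nucleolar RNAs of the PWS domain, summed over 36 genes, checked the labels: they stood at 5557 to 8804 normalized reads in the controls and at 1.78 to 3.96 in the PWS lines. Normalized reads are gene counts divided by a size factor of each library. The labelled β-cell identity was checked on 17 marker genes. All had reads, with Mir375 and both Mir7a genes among the 4 most abundant miRNA genes and insulin mRNA present as fragments (Ins1, 1114 reads). Mafa, a β-cell transcription factor, had 4 reads, in PWS line 3. Of 24 markers of other cells, 19 were listed, and 10 of those had no read, among them the hormones Gcg, Sst and Ppy, the exocrine enzymes Prss1, Cpa1 and Cela1, and the fibroblast genes Col1a1, Col3a1 and Dcn. The summed level of the listed ones was 144 to 184 normalized reads in the controls and 136 to 182 in PWS lines, mostly from the miRNA genes Mir142, Mir199a2, Mir143 and Mir126a.

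Mir148a was the dominant member and one of the most abundant miRNA genes of these cells. It stood at 532328 normalized reads in line 5-9, 602308 in line 2 and 705604 in line 16, and at 501869, 466811 and 751290 in PWS lines 3, 19-1 and 19-4. The highest and the lowest value both came from PWS lines, and the control values lay between them. Over all 6 lines its mean was 593368 ± 114657 (SD, n = 6), and it ranked as number 5 among 355 miRNA genes with a read. Within single libraries its rank ran from number 2, in line 19-4, to number 7, in line 19-1. Just above it in the order stood Mir375, a miRNA that restrains insulin release, at 705935 ± 101086 (SD, n = 6), and just below it Mirlet7f2, a let-7 gene, at 568806 ± 75389 (SD, n = 6). Their ranges overlapped that of Mir148a, and each was above Mir148a in 4 of 6 lines, so the order among these neighbours did not exceed the spread between lines. Ranks were made without a length correction, and mature sequences in the RefSeq table have a median length of 22 bases.

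Mir148b was less abundant and much steadier. Its control lines had 109013, 95057 and 100882 normalized reads (lines 5-9, 2 and 16), and its PWS lines 93153, 96969 and 94671 (lines 3, 19-1 and 19-4). The groups overlapped, as control line 2 lay below PWS line 19-1. The mean over 6 lines was 98291 ± 5889 (SD, n = 6), number 23 among miRNA genes. Its neighbours in the order were Mir26a at 109522 ± 19534 and Mir125a at 95750 ± 21979 normalized reads (SD, n = 6 each). Mir26a was above Mir148b in 5 of 6 lines and Mir125a in 4, with ranges that overlapped that of Mir148b.

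Mir152 was the least abundant member and the most variable. It had 8050, 4322 and 8641 normalized reads in control lines 5-9, 2 and 16, and 8412, 5142 and 6766 in PWS lines 3, 19-1 and 19-4. A low line was found in each group, line 2 among controls and line 19-1 among PWS lines, and the highest line was 2.00 times the lowest. Its mean was 6889 ± 1811 (SD, n = 6), number 64 among miRNA genes, between Mir186 at 8501 ± 1898 and Mir125b1 at 6678 ± 1850 (SD, n = 6 each). Mir186 was above Mir152 in 5 of 6 lines and Mir125b1 in 2, and the ranges of these 3 genes overlapped. Counting error was small against these differences: the fewest reads of any member in any library were 3306, for Mir152 in line 2, which gives a counting CV of 1.74%, whereas Mir152 varied between lines with a CV of 26.3%.

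**Figure D1:**
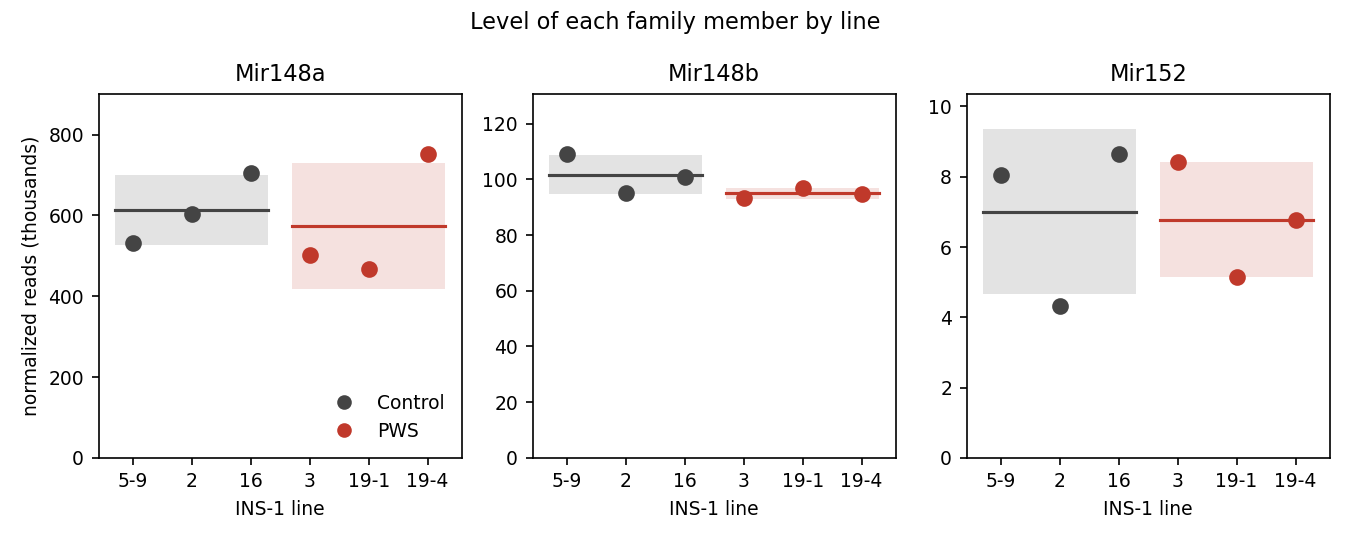
Normalized reads (axes in units of 1000 reads, from 0) of Mir148a, Mir148b and Mir152 in the 3 control lines (grey) and 3 PWS lines (red). Each point is 1 library, each line the group mean and each band 1 SD; the groups overlap for every member, with Mir148b between 93153 and 109013 and Mir152 between 4322 and 8641.

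The family was uneven in a like way in every library. Mir148a made up 82.0% to 88.1% of the family's normalized reads, Mir148b 11.1% to 17.0% and Mir152 0.616% to 1.39%. Divided by the length of the 3p strand, with reads of both strands in the sum, the mean level of Mir148a was 6.32 times that of Mir148b and 86.1 times that of Mir152. The levels of the 3 genes did not overlap in any pair of lines.

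**Figure D2:**
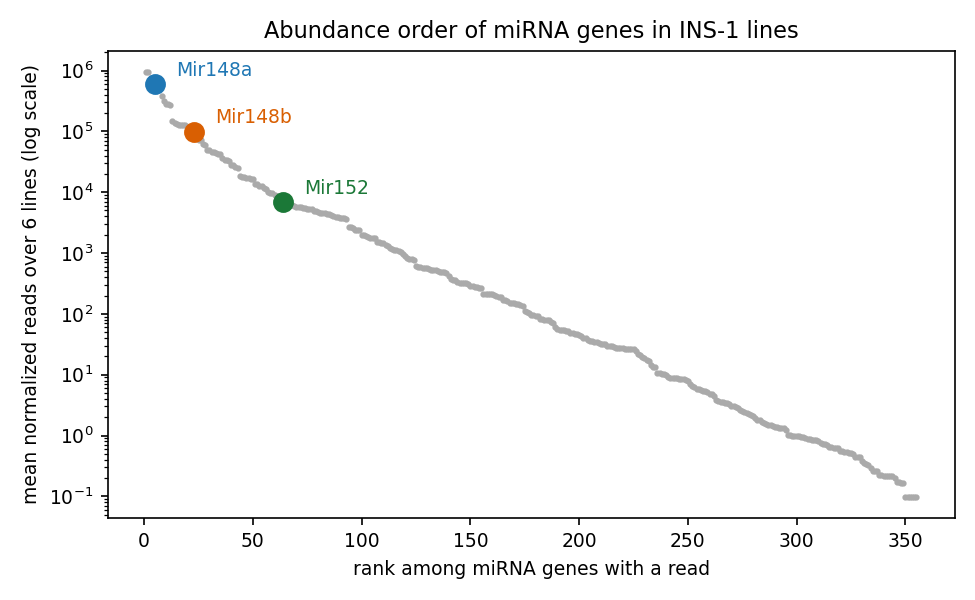
Mean normalized reads over the 6 lines (log axis) against rank for the 355 miRNA genes with a read. The family members are coloured: Mir148a ranks as number 5, Mir148b as number 23 and Mir152 as number 64.

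Together the members took 7.56% ± 1.23 (control) and 7.57% ± 2.09 (PWS) of miRNA reads (SD, n = 3 each). The family's share was 6.19% in line 5-9, 7.88% in line 2 and 8.59% in line 16. In PWS lines 3, 19-1 and 19-4 it was 6.88%, 5.90% and 9.92%. Both the highest and the lowest share belonged to the PWS group, and they came from lines 19-4 and 19-1, which are subclones of a single edited line. The difference between the group means, 0.0107 percentage points, was -1.16 without line 19-4 and 0.843 without line 19-1.

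The spread between lines differed strongly among members. Across the 6 lines the SD of log2 normalized reads was 0.28 for Mir148a, 0.084 for Mir148b and 0.41 for Mir152, against a median of 0.30 over the 118 miRNA genes with a mean of at least 1000. For Mir148b, 2 of the 118 genes had a smaller SD (Mir99b at 0.066 and Mir27b at 0.081, named after their values were seen). For Mir148a 52 had a smaller SD, and for Mir152 90. As a share of miRNA reads, a scale added after the data were seen, Mir148b had the smallest SD of the 118, 0.043, and its share lay between 1.01% and 1.101% in all 6 lines. On that scale the SD was 0.33 for Mir148a and 0.40 for Mir152.

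**Figure D3:**
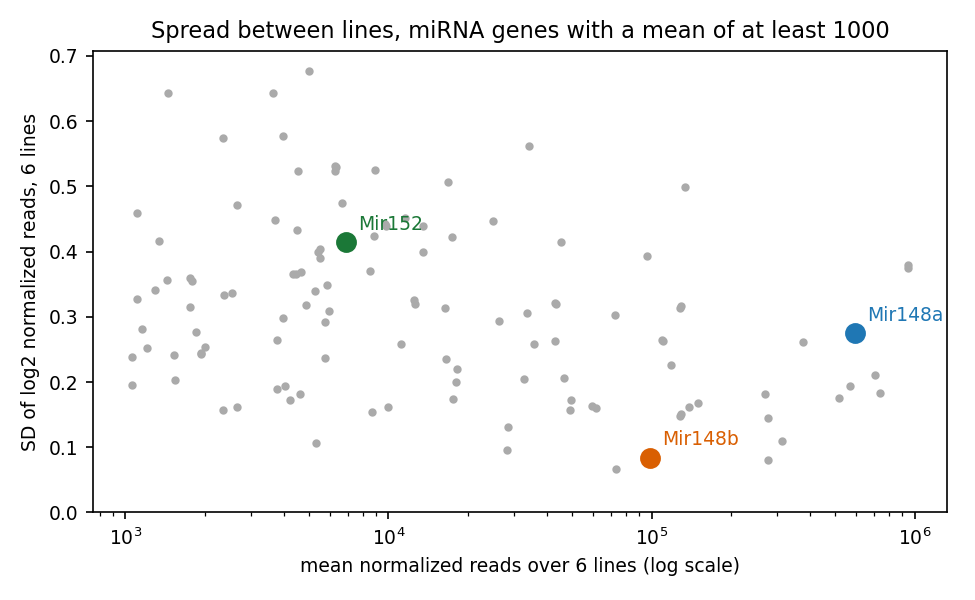
SD of log2 normalized reads across the 6 lines against mean normalized reads (log axis) for the 118 miRNA genes with a mean of at least 1000; each point is 1 gene. Mir148b, at 0.084, lies at the lower edge, where the lowest SD is 0.066, while Mir152 lies at 0.41 in a range that reaches 0.68.

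Lines of close descent were compared next, as a description. Subclone 19-4 held 1.61 times the Mir148a of its sister subclone 19-1, a log2 difference of 0.69, and 27 of the 118 genes differed more between these libraries, whose median absolute log2 difference was 0.44. The same pair differed in Mir148b by -0.035 on the log2 scale, the smallest difference of the 118 genes. For Mir152 the log2 difference was 0.40. Against parental line 5-9, line 16 had 1.33 times the Mir148a level, and line 2 had 0.537 times the Mir152 level. Between control lines 2 and 16 the log2 difference of Mir152 was 1.00, and only 1 of the 118 genes differed more. Between PWS lines 3 and 19-1 it fell by 0.71, with 3 genes differing more. Each of these differences rests on a single library per line.

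The comparison the study was designed for is that of PWS with control lines. None of the 3 members was called higher or lower in PWS lines by limma, at the cutoff of 0.1 for the adjusted p that the study used. In the same test 1.28% of the 4292 genes tested, and 3.09% of the 259 miRNA genes among them, were called, each of them lower. These shares include genes of the deleted domain. Its Mir344 genes are among the miRNA genes tested, with log2 fold changes down to -9.41. Per the study, nearly all small RNAs it found to differ lie in that domain. For the members the count at an unadjusted p under 0.05 was 0 by limma, edgeR and DESeq2 alike, beside 5.96%, 5.36% and 3.19% of all genes tested; with so few members, 0 is also what these shares would give. In libraries from whole cultures, fewer cells with a miRNA and less of it per cell cannot be told apart. The mean of Mir148a was 613413 ± 87170 normalized reads over the controls and 573323 ± 155118 over the PWS lines (SD, n = 3 each). Its log2 fold change, PWS minus control on the scale of log2(normalized reads + 1), came to -0.12 ± 0.21 (SE; limma adjusted p of 0.950). The 95% interval of the difference ran from -0.57 to 0.33, that is from 0.672 to 1.26 times the control level. Scaled to miRNA reads the log2 fold change was -0.026, and it was -0.060 by edgeR and -0.088 by DESeq2. The value depended on which subclone was kept, at 0.011 with line 19-1 left out and at -0.33 with line 19-4 left out (unadjusted limma p of 0.0605, adjusted p of 0.988).

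For Mir148b the means were 101651 ± 7010 normalized reads (control) and 94931 ± 1922 (PWS; SD, n = 3 each). The log2 fold change was -0.097 ± 0.19 (SE; limma adjusted p of 0.950), with an interval from 0.711 to 1.23 times the control level. Scaled to miRNA reads it was -0.0016. Mir152 averaged 7004 ± 2342 and 6773 ± 1635 normalized reads (SD, n = 3 each). Its log2 fold change of -0.013 ± 0.28 (SE; limma adjusted p of 0.992) had an interval from 0.658 to 1.49 times the control level. The sign changed under 6 of 22 alternatives, among them scaling to miRNA reads. Several of the 22, such as other filters, cannot move the value. A change of a given member within these intervals could not be told from none with 3 lines in each group.

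The groups overlapped for all 3 members, so 0 of 3 were separated, beside 11.2% of all genes tested and 15.8% of the miRNA genes among them. The median log2 fold change of the members was -0.097, beside -0.14 over the tested miRNA genes and 0.0048 over all genes tested. The middle 50% of tested miRNA genes ran from -0.42 to 0.060, a range that holds all 3 members.

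**Figure D4:**
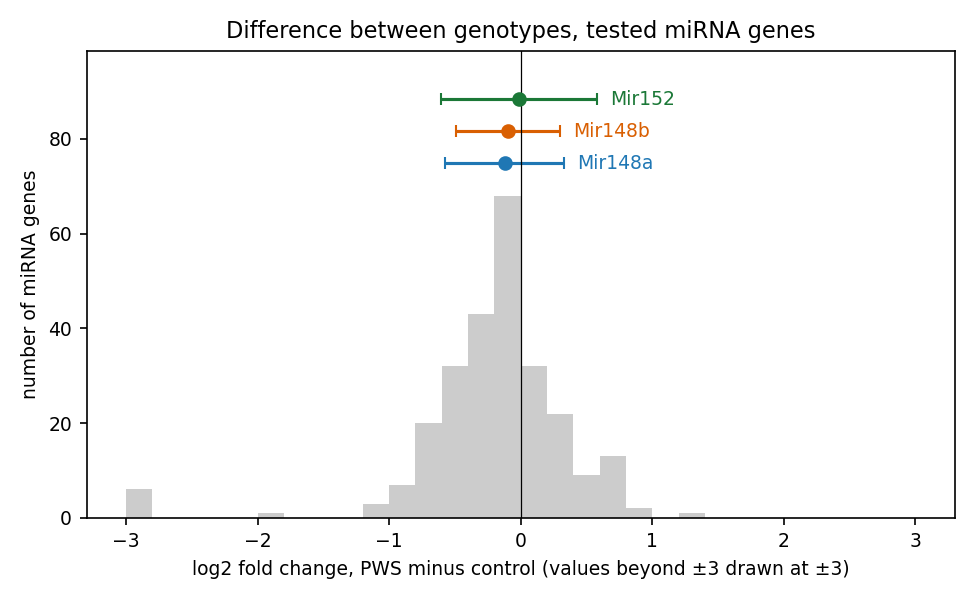
Histogram of log2 fold changes (PWS minus control) of the 259 miRNA genes tested, in bins of 0.2. The 6 genes below -3, all Mir344 genes of the deleted domain, are drawn at -3. The points above it are the members with their 95% intervals: Mir148a at -0.12, Mir148b at -0.097 and Mir152 at -0.013, each interval crossing 0.

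Whether the members responded differently from each other was tested on their ratios within each library, which do not depend on how libraries are scaled. The ratio of Mir148a to Mir148b was 4.88, 6.34 and 6.99 in control lines 5-9, 2 and 16, and 5.39, 4.81 and 7.94 in PWS lines 3, 19-1 and 19-4. The log2 ratio differed by -0.024 between groups (exact two-sided permutation p = 0.9, n = 3 each). Mir148a exceeded Mir152 by 66.1, 139 and 81.6 times in the control lines and by 59.7, 90.8 and 111 times in the PWS lines, again in that order. Here the log2 ratio differed by -0.11 between groups (exact permutation p = 0.9). The ratio of Mir148b to Mir152 ran from 11.1 in line 3 to 22.0 in line 2, and its log2 value differed by -0.084 between groups (exact permutation p = 0.8). Over these 3 pairs the adjusted p was 0.9 for each, and since 3 against 3 lines cannot give a p below 0.1, this design cannot reach 0.05.

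**Figure D5:**
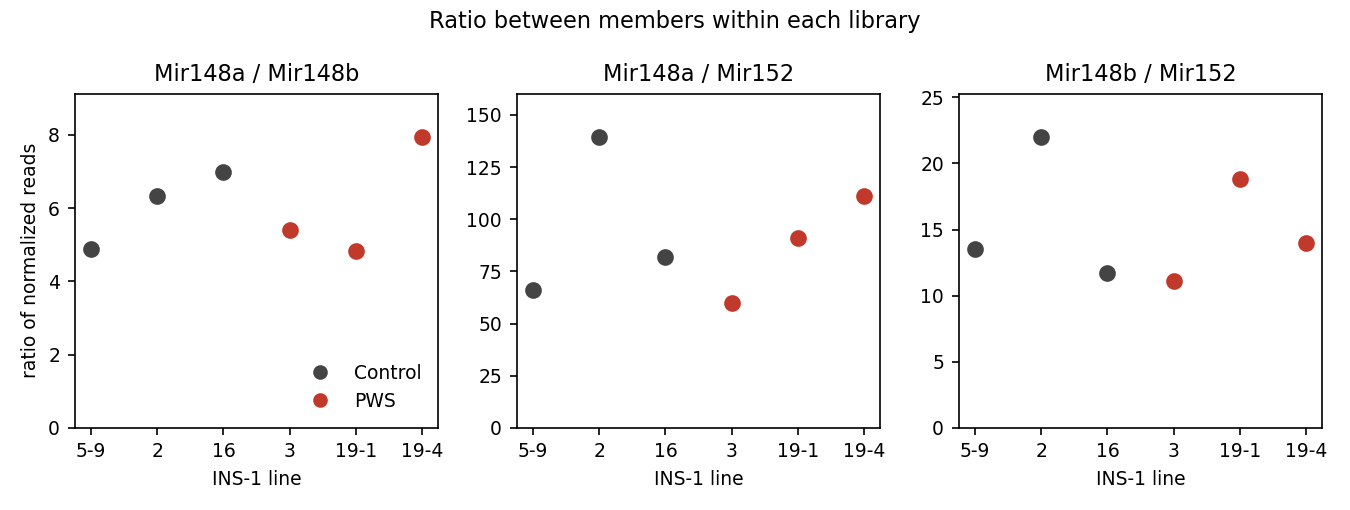
Ratio of normalized reads between members within each library (axes from 0), control lines in grey and PWS lines in red. Control and PWS points interleave in all 3 panels, with Mir148a / Mir148b between 4.81 and 7.94.

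The members did not follow one another from line to line. Over the 6 lines Pearson's r of log2(normalized reads + 1) was -0.072 between Mir148a and Mir148b, 0.16 between Mir148a and Mir152 and 0.37 between Mir148b and Mir152. The lines share ancestry and the values share the library's scaling, so these are descriptions. Of the 176 other miRNA genes with a mean of at least 100, those most like Mir148a were Mir708 (r = 0.81), Mir6329 (0.80) and Mir1306 (0.70). Mir708, for example, had 510, 1250 and 1194 normalized reads in lines 5-9, 2 and 16 and 494, 423 and 882 in lines 3, 19-1 and 19-4. Like Mir148a, it was lower in lines 5-9, 3 and 19-1 than in the others. All reads of Mir1306 were also counted for Dgcr8, in which it lies.

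Most like Mir148b were Mir30a (r = 0.96), Mir200b (0.96) and Mir181d (0.91). Each of these had its highest value in line 5-9, as Mir148b did (Mir30a at 61362 normalized reads there and 44779 to 50988 elsewhere). Most like Mir152 were Mir141 (r = 0.88), Mir582 (0.84) and Mir153 (0.79). Mir141, an epithelial miRNA of the miR-200 family, had its lowest values in lines 2 (51925 normalized reads) and 19-1 (64630), the lines in which Mir152 was also lowest. These genes were picked as the highest of 176, and no r to be had by chance was computed.

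The host genes were hardly represented in these libraries, which select small RNAs and hold fragments of mRNA only. Copz1 had 10, 0 and 7 reads in control lines 5-9, 2 and 16 and 10, 8 and 6 in PWS lines 3, 19-1 and 19-4, against 71811 to 156846 reads of Mir148b in the same libraries. The log2 fold change of Copz1 was 1.02 ± 0.76 (SE; limma adjusted p of 0.882). Copz2 had 4 reads, all in line 3, and was not tested. Fragments of mRNA at these counts do not measure transcription of a host gene.

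Other miRNAs of β-cells for which a part in insulin production or release is known were listed beside the family, 13 genes of which 9 were found and tested. None was called in either direction by limma (smallest adjusted p of 0.860, shared by Mir24-2, Mir26a and Mir26a-2), edgeR or DESeq2, beside 1.28% of all genes tested by limma. At an unadjusted p under 0.05 there were 0 by each, beside 5.96%, 5.36% and 3.19% of all genes tested. With so few genes, 0 is also what these shares would give. The median log2 fold change of the 9 was -0.12, beside -0.14 over the tested miRNA genes. The most abundant were Mir7a2 at 946577, Mir7a1 at 944223 and Mir375 at 705935 mean normalized reads. Both Mir7a genes give the same mature miRNA, so their values are not independent. Mir26a and Mir26a-2 had near-equal means (109522 and 110331) and may not be independent either. In mean level Mir148a stood below Mir7a2, Mir7a1 and Mir375 and above Mir30d (312558) and Mir26a.

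Of 17 genes known as targets of the family, all had fragments and 6 passed the filter of a mean of 5 normalized reads. None of the 6 was called by limma, edgeR or DESeq2, beside 1.28% of all genes tested by limma. At an unadjusted p under 0.05 there were 0 by each, beside 5.96% of all tested genes by limma. With so few genes, 0 is also what this share would give. The median log2 fold change of the 6 was -0.19, beside 0.0048 over all genes tested. Abca1 averaged 31.6 ± 6.23 (control) and 33.4 ± 5.47 (PWS) normalized reads (SD, n = 3 each). Rock1, a kinase of the cytoskeleton, averaged 11.6 ± 1.30 and 9.88 ± 3.66 (SD, n = 3 each). Sox6, one of the repressors through which the family is known to act on insulin, had 0, 0 and 1 reads in control lines and 3, 3 and 1 in PWS lines, and Bhlhe22 had 3 reads, all in line 16. Differences in these repressors were not detectable at this depth.

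Insulin mRNA itself was seen as fragments. Ins1 had 174, 122 and 285 normalized reads in control lines 5-9, 2 and 16 and 184, 103 and 88.3 in PWS lines 3, 19-1 and 19-4. This is a log2 fold change of -0.61 ± 0.36 (SE; limma adjusted p of 0.860). Ins2 had 22.7, 10.5 and 30.1 normalized reads in the control lines and 16.0, 6.30 and 0 in the PWS lines, in the same order. Ins2 had a log2 fold change of -2.03 ± 0.74 (SE; limma adjusted p of 0.727). Line 19-4, which had the highest Mir148a of all lines, thus had the lowest Ins1 and Ins2, whereas line 16, with the next highest Mir148a, had the highest. None of the 14 β-cell markers tested was called by limma, edgeR or DESeq2, and at an unadjusted p under 0.05 there was 1 by limma (Ins2), 1 by edgeR and 0 by DESeq2. A count of 1 in 14 is near the 5.96% of all tested genes that limma put under that threshold, so it is not a result about the markers.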

How the data were processed

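The authors made libraries from total RNA with a miRNA kit that adds unique molecular identifiers, adapted to keep other small RNAs. Per the labels and methods, they deduplicated reads with UMI-tools 1.0.0, trimmed adapters with cutadapt 1.18, aligned with Bowtie2 2.3.4.2 (build Rnor_6.0, custom annotation) and counted with HTSeq 0.11.2. Per gene and library, the deposited signal is the count after division by a DESeq2 size factor (normalized reads). One table adds a read that overlaps several annotated genes to each of them (option "all", used by the study and here), the other leaves it out ("none"). Reads that fit several loci by sequence were not all left out under "none". In line 5-9, Mir7a1 and Mir7a2 held 1277532 and 1284147 reads under "all", whereas the total fell from 11823702 to 11600729 under "none". All values were whole multiples of 1 read (100% within 0.001), so reads were recovered. Columns with the authors' own fold changes and p-values were not used.

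limma-trend (limma 3.58.1, R 4.3.3) was run on log2(normalized reads + 1) over all 4292 genes with a mean of at least 5, with genotype as the only term, Benjamini-Hochberg adjustment and a cutoff of 0.1. Ratios were compared by an exact permutation test. miRNA genes were recognised by symbol (458 listed). edgeR 4.0.16, DESeq2 1.42.0 and limma-voom on recovered reads were alternatives, with other pseudocounts, filters, scalings and sets of lines. Mature sequences were matched by symbol to RefSeq (3 of 3 members; 5 mature sequences). Named genes were the members, Copz1 and Copz2, for each member the 3 miRNA genes with the highest r and its neighbours in level, and from each list called genes and the 3 most abundant; 1 item that this rule would name is not reported here, and others are named for their role in the text, after their values were seen. In the lists, Mir26a2 and Mir199a were matched to the table's Mir26a-2 and Mir199a2. The members and lists were chosen with earlier results of these data known. Counting CVs cover counting error only. The 6 libraries held 7373691 to 16480475 gene assignments under "all".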

Additional observations from a re-analysis of the deposited data

How the results depend on the processing

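No member was called under any of the 22 alternatives to the test, over which the limma, edgeR or DESeq2 adjusted p ran from 0.935 to 1.00 for Mir148a, 0.912 to 1.00 for Mir148b and 0.840 to 1.00 for Mir152. The number of genes called, 55, stayed within 1.5 times of itself in all 22, from 41 to 66. Mir148b kept its negative sign in 22 of 22, at -0.0016 scaled to miRNA reads. Changed filters, the robust fit, the stricter threshold and the replicate block cannot move a log2 fold change here, so their signs were fixed. The log2 fold change of Mir152 turned positive scaled to miRNA reads (0.082), in limma-voom (0.012) and with lines 19-1 and 19-4 averaged (0.079). With 1 line left out it ran from -0.33 to 0.17 for Mir152, positive without line 5-9 (0.12), 16 (0.17) or 19-1 (0.17), from -0.33 to 0.011 for Mir148a, positive without line 19-1, and from -0.14 to -0.045 for Mir148b. Mir148a came nearest to a difference without line 19-4 (-0.33, unadjusted limma p of 0.0605, adjusted 0.988). The difference in log2 ratio ran from -0.24 to 0.12 for Mir148a / Mir148b, from -0.34 to 0.20 for Mir148a / Mir152 and from -0.28 to 0.19 for Mir148b / Mir152, with the sign turned without line 2 or 3 in each and also without line 16 or 19-1 in the first, and the difference in family share from -1.16 to 0.843 percentage points. The cause of the changed signs was not tested. With the replicate number as a block the log2 fold changes were -0.12, -0.097 and -0.013 and 56 genes were called. The labels number the lines within each group and state no pairing. Deviations from the group means correlated at 0.41, 0.22 and -0.057 for the pairs numbered 1, 2 and 3. For pairs of unlike number they correlated at -0.55 to 0.30, so pair 1 had the highest value of all.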

Other observations

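Of the genes of the miRNA pathway, all 13 listed had reads and 8 were tested. None was called by limma, edgeR or DESeq2, beside 1.28% of all genes tested by limma. At an unadjusted p under 0.05 there were 0 by each, beside 5.96%, 5.36% and 3.19% of all genes tested. With so few genes, 0 is also what these shares would give. The smallest limma adjusted p was 0.887, for Dicer1, which cuts miRNA hairpins. The most abundant were Dgcr8, Tnrc6b and Ran, at means of 574, 30.9 and 20.8 normalized reads. Dgcr8, a subunit of the complex that releases hairpins in the nucleus, had a mean of 4.80 in the table that leaves out shared reads, below the filter of 5, and Mir1306, which lies in it, had 568 with shared reads and 0 without. Nearly all reads given to Dgcr8 were thus shared with Mir1306, so its place and its test do not measure Dgcr8 mRNA.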
